A study of Mus musculus with 12 samples.

Results

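Immediate early genes and heat shock genes were followed across 3 kinds of mouse pancreatic samples. Of 47 genes on the list, 45 had a probe set assigned to that gene alone, out of 18194 genes measured in the same way. These were all 32 immediate early genes and 13 of the 15 heat shock genes. Hsp90ab1 and Hsf1 were not analysed here. All 45 passed the filter on dim signals that 14991 genes passed. Each gene was read from its brightest probe set over all 12 arrays.

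Immediate early genes are switched on within a short time of a stimulus by transcription factors that the cell already holds, such as SRF and CREB, and their mRNAs are usually short-lived. Many of them encode transcription factors, and others encode proteins that shut the same signals off again. Heat shock genes encode chaperones that fold proteins, hold unfolded ones or send them to degradation, and HSF1 raises many of them under stress. Some chaperones, such as HSC70, are made at all times. Both groups are known to respond when tissue is cut, digested or warmed, and growth factors such as EGF and FGFs induce immediate early genes through the MAPK pathway.

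The yDucts were ductal organoids derived from acini that carried R26-rtTA and tetO-YAP S127A, in which doxycycline had switched on YAP for a limited time and which were later passaged without it. The Ducts were organoids that had grown out of handpicked duct fragments. Acini were exocrine units freshly isolated by digestion from the pancreas of adult mice, and the genotype of the arrayed acini was not given in the sources used here. Both kinds of organoid were kept in Matrigel in a medium with B27, N-acetylcysteine, gastrin, EGF, Noggin, FGF10, nicotinamide and R-spondin1. Each group had 4 arrays, lettered A to D and described by the labels and the study as separate biological samples. Whether that means separate animals or cultures was not given, so each p-value reflects the spread among the arrays, which may be partly technical. Freshly isolated tissue was set against cultured cells in both comparisons with Acini, so culture, handling and cell identity cannot be told apart in them, and both comparisons used the same 4 Acini arrays. In such bulk samples fewer cells of a type and less RNA per cell cannot be told apart either.

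Acinar markers checked the labels: all 10 measured were lower than in Acini in both kinds of organoid, and 5 of 7 duct markers were higher in each. Of the other duct markers Sox9 passed in neither comparison, and Muc1 fell by 0.67 in yDucts and did not pass in Ducts. The Acini also held other cells' transcripts. The mean level of 8 stromal markers was 3.28 to 3.36 (log2) in yDucts and 3.23 to 3.44 in Ducts, against 6.78 to 7.48 in Acini. That of 7 endothelial markers was 3.61 to 3.76, 3.60 to 3.85 and 6.29 to 6.81, and that of 8 immune markers was 3.86 to 3.96, 3.80 to 4.23 and 5.99 to 6.44, in the same order of groups. All 8 stromal, all 7 endothelial, all 6 endocrine and 7 of 8 immune markers fell in each kind of organoid, Cd68 being higher. RNA quality moved with the groups as well. The 3′ control probe set of Gapdh minus its 5′ one was -0.17 to -0.12 in yDucts, -0.07 to 0.02 in Ducts and 1.29 to 1.91 in Acini (log2). The part of these differences in the results below was not tested.

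A few stretches of promoter were taken from RefSeq (GRCm38.p6), which gave windows of 250 bases before to 50 after an annotated start for 37 of the tested members and 12030 of all tested genes. The stretches with a heat shock element, a CArG box or a CRE before a start site are shown because these are the binding motifs of HSF1, SRF and CREB. That of Hsph1 is not shown, since it lies after the annotated start. Capitals mark the motif, every stretch reads 5′ to 3′ on the strand of its gene, and positions count from the annotated start site as 0. Hspd1 and Hspe1, which encode the mitochondrial chaperonin HSP60 and its partner HSP10, are neighbours on opposite strands. From one of the 2 annotated Hspd1 starts they are transcribed away from each other, with start sites 216 bases apart. For the other, the Hspe1 start minus the Hspd1 start is -95 bases, so the transcripts overlap and the stretch lies after that Hspd1 start. The Hspe1 window and that of the first Hspd1 start share the heat shock elements at chr1:55088053-55088082. These are shown on the plus strand of Hspe1, where 2 overlapping matches begin at positions -89 and -84. The Egr2 stretches lie at chr10:67537484-67537513 and chr10:67537787-67537816 (plus strand), each with its CArG box at position -72 of a different start. Dusp5 carried 2 adjoining CArG boxes at chr19:53529058-53529087 (plus), Zfp36 one at chr7:28379267-28379296 (minus), Dusp1 a CRE at chr17:26508597-26508626 (minus) and Btg2 a CRE at chr1:134079303-134079332 (minus).
Hspe1: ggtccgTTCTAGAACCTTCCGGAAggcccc
Egr2, upstream start: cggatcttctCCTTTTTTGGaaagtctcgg
Egr2, downstream start: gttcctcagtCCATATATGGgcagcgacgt
Dusp5: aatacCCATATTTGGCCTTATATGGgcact
Zfp36: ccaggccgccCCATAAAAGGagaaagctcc
Dusp1: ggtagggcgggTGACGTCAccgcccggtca
Btg2: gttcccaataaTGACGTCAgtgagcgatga

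All searches covered both strands. The heat shock element, searched as alternating GAA and TTC triplets spaced by 2 bases, 3 triplets long and GAA first, was found in the windows of 3 of 11 heat shock genes with a window (Hsph1, Hspd1 and Hspe1; 27.3%), against 0.574% of all tested genes. The CArG box was found in 3 of 26 immediate early genes (Egr2, Dusp5 and Zfp36; 11.5%) and in 1.65% of all. The CRE, TGACGTCA, was found in 2 of 26 (Dusp1 and Btg2; 7.69%) and in 3.21% of all. The binding motif of EGR proteins, GCGNGGGCG, was found in 10 of 26 (38.5%), among them Fosb, Nr4a1 and Socs3, and in 11.4% of all. The AP-1 motif TGANTCA was found in 0 of 26 and in 6.98% of all. A match is a description of the letters, and a window without one says only that these letters were not in it. Immediate early genes were also short. Their median span was 4004 bases and that of the 13 heat shock genes 5360 bases, against 21211 for all tested genes.

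Most immediate early genes were lower in both kinds of organoid than in freshly isolated acini, while 7 were higher in each. In yDucts against Acini, 20 of 32 fell (62.5%), 7 rose (21.9%) and 5 did not pass the test (limma, adjusted p under 0.05). Over all tested genes 32.6% fell and 43.6% rose. In Ducts against Acini, 22 fell (68.8%), 7 rose (21.9%) and 3 did not pass, beside 33.1% and 42.7% of all tested genes. The median difference of the 32 genes was -1.21 in yDucts and -1.51 in Ducts, where that of all tested genes was 0.24 and 0.21. Of the 32, 18 fell by 2-fold or more in Ducts, as did 17.9% of all genes, and 19 in yDucts, as did 18%. The groups did not overlap, with the organoids lower, for 20 genes in yDucts and 21 in Ducts (29.6% and 27.3% of all genes).

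**Figure D1:**
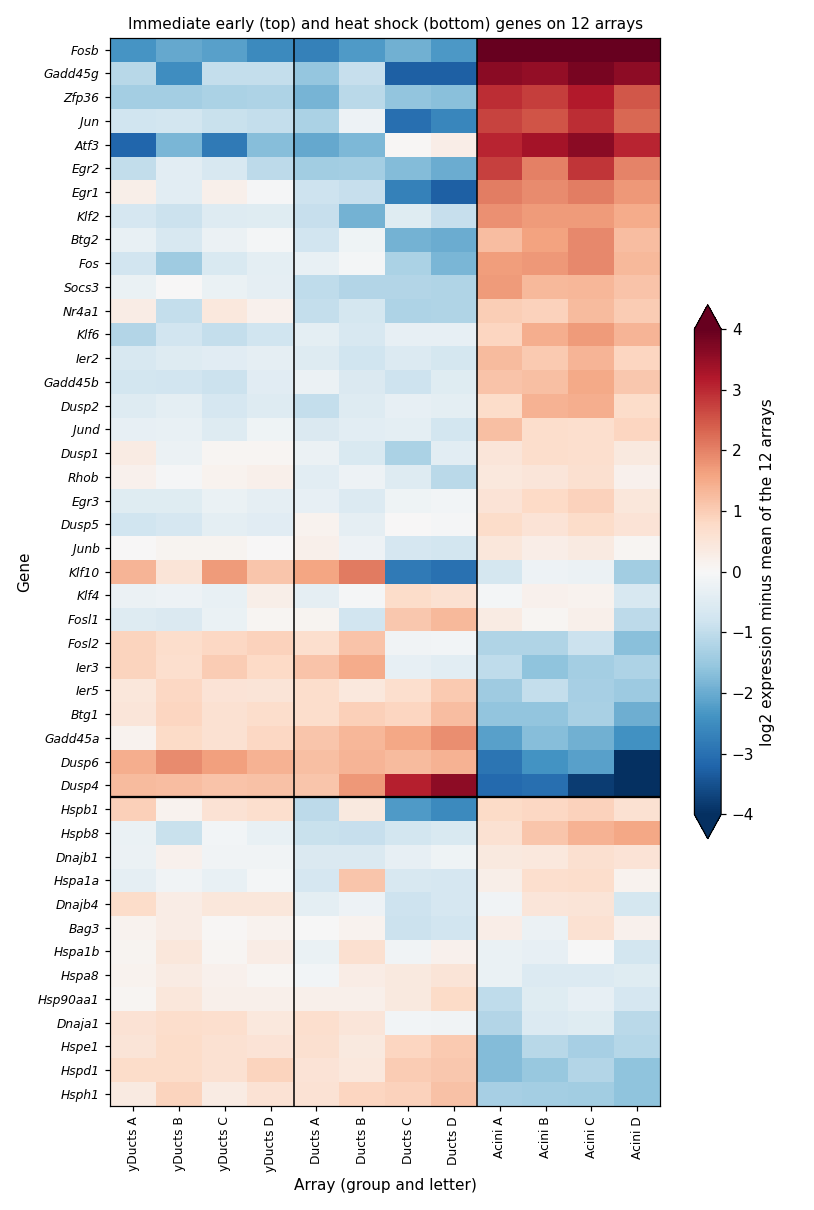
Log2 expression of the 32 immediate early genes (above the line) and 13 heat shock genes (below it) on each array, minus the gene's mean over the 12 arrays. Rows are genes ordered by the difference between Ducts and Acini, columns are arrays, and the colour scale ends at 4 in each direction. Most rows in the upper block are red on the 4 Acini arrays, and the lowest rows of each block are blue there.

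The AP-1 proteins are dimers of FOS and JUN family members. Fos read 10.13, 9.48, 10.29 and 10.51 (log2) on the yDucts arrays A to D and 10.59, 10.81, 9.63 and 9.08 on the Ducts arrays, against 12.56, 12.62, 12.83 and 12.20 on the Acini arrays. Every organoid array was lower than every Acini array, and Ducts D was the lowest of all 12. The difference was -2.45 ± 0.35 (SE) in yDucts, a 5.46-fold fall (adjusted p = 3.31e-05), and -2.52 ± 0.35 in Ducts, a 5.76-fold fall (adjusted p = 2.6e-05).

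Fosb, another FOS family member, showed the widest gap among the immediate early genes. It read 2.82, 3.12, 3.01 and 2.61 in yDucts and 2.47, 2.90, 3.24 and 2.87 in Ducts, against 9.68, 9.95, 10.17 and 9.22 in Acini. Both organoid means lay below the 30th percentile of their arrays, which was taken as background, and only 1 of the 8 organoid arrays exceeded it. Fosb was therefore at least 94.4-fold lower in yDucts (adjusted p = 4.82e-11) and at least 93.2-fold lower in Ducts (adjusted p = 4.47e-11).

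Jun encodes the classic partner of FOS. It read 8.27, 8.34, 8.18 and 8.13 in yDucts and 7.81, 8.89, 6.07 and 6.46 in Ducts, against 11.78, 11.59, 12.04 and 11.39 in Acini. The yDucts arrays lay within a narrow band, while Ducts C and D were far below Ducts A and B. The difference was -3.47 ± 0.47 in yDucts (11.1-fold, adjusted p = 2.13e-05) and -4.39 ± 0.47 in Ducts (21.0-fold, adjusted p = 2.73e-06). Jund fell too, by 1.20 and 1.39 on the log2 scale in yDucts and Ducts. As deposited, Junb differed little, by -0.23 ± 0.19 in yDucts (adjusted p = 0.298) and by -0.65 ± 0.19 in Ducts (adjusted p = 0.00863), where the arrays overlapped those of Acini. In yDucts Junb passed as lower under quantile normalization (-1.01, adjusted p = 0.000825) and cyclic loess (-1.34, adjusted p = 9.67e-05). Fosl2 was the AP-1 member that rose, by 2.07 ± 0.27 in yDucts and 1.62 ± 0.27 in Ducts, although its other probe set moved the opposite way and the mean of both did not pass (0.37, adjusted p = 0.06, and 0.21, adjusted p = 0.266). Fosl1 did not pass in either comparison.

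**Figure D2:**
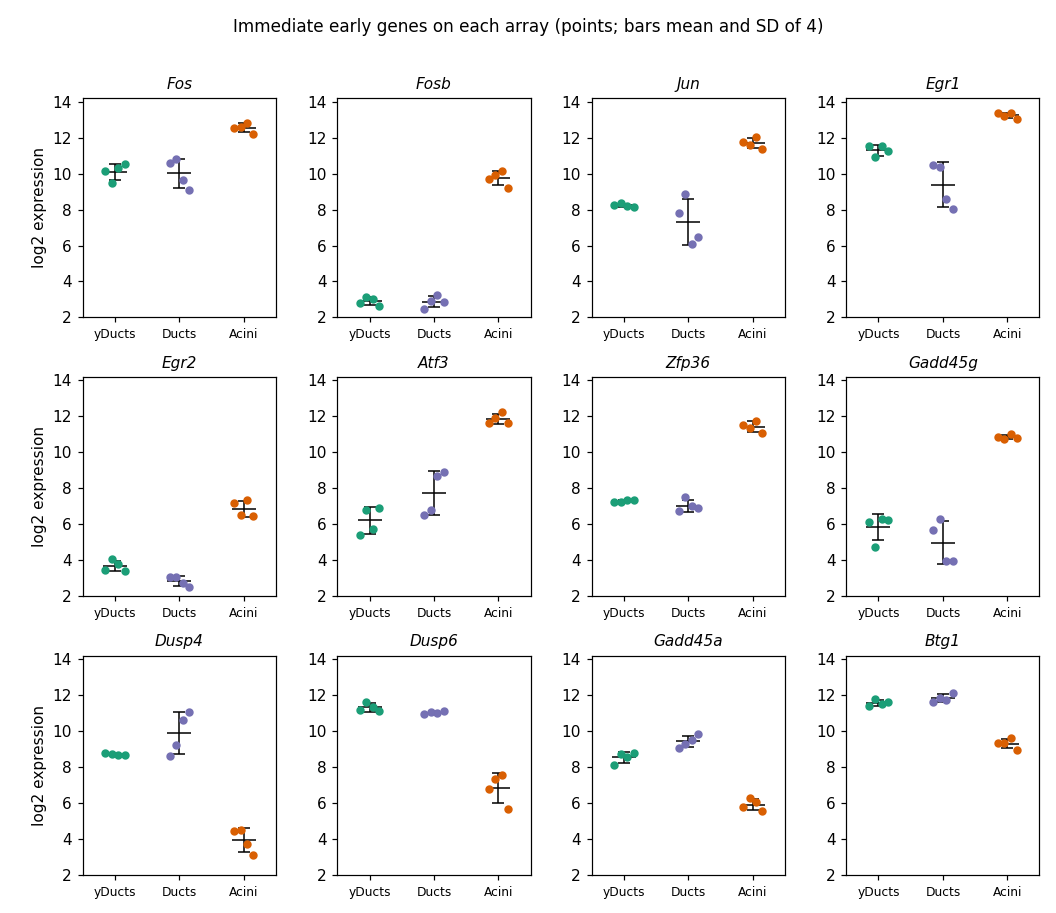
Log2 expression of 12 immediate early genes in yDucts, Ducts and Acini. Each point is an array and bars give the mean and SD of 4 arrays. In Fosb the organoid arrays lie between 2.47 and 3.24 and the Acini arrays between 9.22 and 10.17, and in Dusp4, Dusp6, Gadd45a and Btg1 the Acini arrays are the lower ones.

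The zinc finger factors of the EGR family were lower in the organoids. Egr1 read 11.54, 10.90, 11.53 and 11.25 in yDucts and 10.49, 10.39, 8.60 and 8.04 in Ducts, against 13.37, 13.20, 13.37 and 13.06 in Acini. The 3 groups did not overlap, with Ducts lowest and Ducts C and D lowest within it. The difference was -1.95 ± 0.46 in yDucts (3.85-fold, adjusted p = 0.00179) and -3.87 ± 0.46 in Ducts (14.6-fold, adjusted p = 6.81e-06). Egr2, whose promoter stretches are printed above, read 3.46, 4.04, 3.81 and 3.40 in yDucts and 3.07, 3.09, 2.71 and 2.49 in Ducts, against 7.19, 6.49, 7.32 and 6.45 in Acini. No organoid array reached the lowest Acini array, and no Ducts array was above background. Egr2 was 9.09-fold lower in yDucts (adjusted p = 1.3e-07) and at least 12.6-fold lower in Ducts (adjusted p = 1.68e-08). Egr3 fell by 1.07 and 0.97 in yDucts and Ducts on its brightest probe set, and its more variable probe set gave 0.69 in yDucts (adjusted p = 0.248).

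Atf3, a stress-induced factor of the ATF/CREB family, read 5.42, 6.78, 5.76 and 6.90 in yDucts and 6.54, 6.81, 8.66 and 8.88 in Ducts, against 11.66, 11.93, 12.22 and 11.66 in Acini. All organoid arrays were well below those of Acini, and here Ducts C and D were the highest of the organoids. The difference was -5.65 ± 0.51 in yDucts (50.3-fold, adjusted p = 6.32e-07) and -4.14 ± 0.51 in Ducts (17.7-fold, adjusted p = 9.62e-06). Of the other transcription factors, Nr4a1, an orphan nuclear receptor, fell by 1.07 in yDucts and 2.08 in Ducts. Klf2 fell by 2.32 and 2.73, and Klf6 by 2.27 and 1.78, both being Krüppel-like factors. Klf4 and Klf10 of the same family did not pass in either comparison with the deposited values, the brightest probe set and all arrays. Klf4 was lower in yDucts under quantile normalization (-0.88, adjusted p = 0.00927) and cyclic loess (-1.14, adjusted p = 0.00126). Its more variable probe set also passed there (-0.80, adjusted p = 0.00883). In Ducts cyclic loess gave Klf4 -0.78 (adjusted p = 0.0138), and leaving out Ducts A and B gave 0.78 (adjusted p = 0.0142). Klf10 varied most among the Ducts arrays (SD 2.74). It read 8.24, 7.39, 8.59 and 7.98 in yDucts and 8.47, 8.97, 4.07 and 3.90 in Ducts, against 6.18, 6.68, 6.66 and 5.48 in Acini. All yDucts arrays and Ducts A and B were thus above every Acini array, and Ducts C and D below every one. The Klf10 difference in yDucts was 1.80 ± 0.98 (adjusted p = 0.111), and the same difference passed when the fit held yDucts and Acini alone (adjusted p = 0.000388).

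Zfp36 encodes tristetraprolin, which binds AU-rich elements and speeds the decay of short-lived mRNAs. It read 7.21, 7.23, 7.32 and 7.35 in yDucts and 6.73, 7.49, 6.99 and 6.91 in Ducts, against 11.54, 11.36, 11.76 and 11.06 in Acini. The organoid arrays were all more than 3 log2 units below the lowest Acini array. It was 17.8-fold lower in yDucts (-4.15 ± 0.19, adjusted p = 1.43e-09) and 21.1-fold lower in Ducts (-4.40 ± 0.19, adjusted p = 8.42e-10). Socs3, an inhibitor of cytokine signalling through JAK and STAT, fell by 1.58 in yDucts and 2.51 in Ducts. Ier2 fell by 1.62 and 1.77. Btg2, an antiproliferative gene and p53 target, fell by 1.82 and 2.71, and Rhob, a small GTPase, by 0.98 in Ducts, with -0.31 ± 0.18 in yDucts (adjusted p = 0.138). In yDucts Rhob passed as lower under quantile normalization (-1.14, adjusted p = 0.000134) and cyclic loess (-1.43, adjusted p = 2.08e-05).

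The MAPK phosphatases of the DUSP family were split. Dusp1 fell by 1.20 in Ducts and by 0.49 in yDucts (adjusted p = 0.0484), a call that was lost in 8 of the 12 fits that left out 1 array. Dusp2 fell by 1.60 in yDucts and 1.62 in Ducts, and Dusp5 by 1.22 and 0.71. Dusp4 and Dusp6, known as targets of ERK signalling, rose. Dusp4 read 8.76, 8.73, 8.64 and 8.68 in yDucts and 8.61, 9.24, 10.63 and 11.07 in Ducts, against 4.41, 4.50, 3.70 and 3.09 in Acini, where 3 of 4 arrays were above background. No organoid array overlapped the Acini arrays, and Ducts C and D were the highest. Dusp4 was 27.4-fold higher in yDucts (4.78 ± 0.47, adjusted p = 1.34e-06) and 62.4-fold higher in Ducts (5.96 ± 0.47, adjusted p = 2e-07), with the Acini mean close to background.

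Dusp6 read 11.17, 11.62, 11.36 and 11.11 in yDucts and 10.93, 11.07, 11 and 11.1 in Ducts, against 6.79, 7.32, 7.54 and 5.67 in Acini. The organoid arrays were tightly grouped and Acini D was the lowest. It was 22.4-fold higher in yDucts (4.48 ± 0.32, adjusted p = 7.91e-08) and 18.3-fold higher in Ducts (4.19 ± 0.32, adjusted p = 1.39e-07). Ier3 rose by 2.14 in yDucts and 1.77 in Ducts, and Ier5 by 1.87 and 2. Btg1, an antiproliferative gene like Btg2, read 11.39, 11.76, 11.51 and 11.60 in yDucts and 11.62, 11.86, 11.75 and 12.14 in Ducts, against 9.32, 9.33, 9.61 and 8.96 in Acini. Its groups did not overlap, and it rose by 2.26 ± 0.17 in yDucts (adjusted p = 1.28e-07) and 2.54 ± 0.17 in Ducts (adjusted p = 4.82e-08).

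The 3 GADD45 genes, which encode small stress sensors acting on the cell cycle and on MAPK kinases, did not move together. Gadd45g read 6.11, 4.74, 6.27 and 6.26 in yDucts and 5.67, 6.30, 3.97 and 3.95 in Ducts, against 10.84, 10.74, 11.02 and 10.80 in Acini. It was 32.1-fold lower in yDucts (-5.00 ± 0.50, adjusted p = 1.45e-06) and 58.8-fold lower in Ducts (-5.88 ± 0.50, adjusted p = 3.65e-07), with no overlap. Gadd45b differed by -1.92 in yDucts and -1.75 in Ducts and passed in both. Gadd45a read 8.10, 8.73, 8.56 and 8.79 in yDucts and 9.08, 9.3, 9.5 and 9.81 in Ducts, against 5.80, 6.25, 6.04 and 5.54 in Acini. All its organoid arrays were above all Acini arrays, and it rose by 2.64 ± 0.21 in yDucts (6.22-fold, adjusted p = 2.48e-07) and 3.52 ± 0.21 in Ducts (11.4-fold, adjusted p = 2.05e-08).

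**Figure D3:**
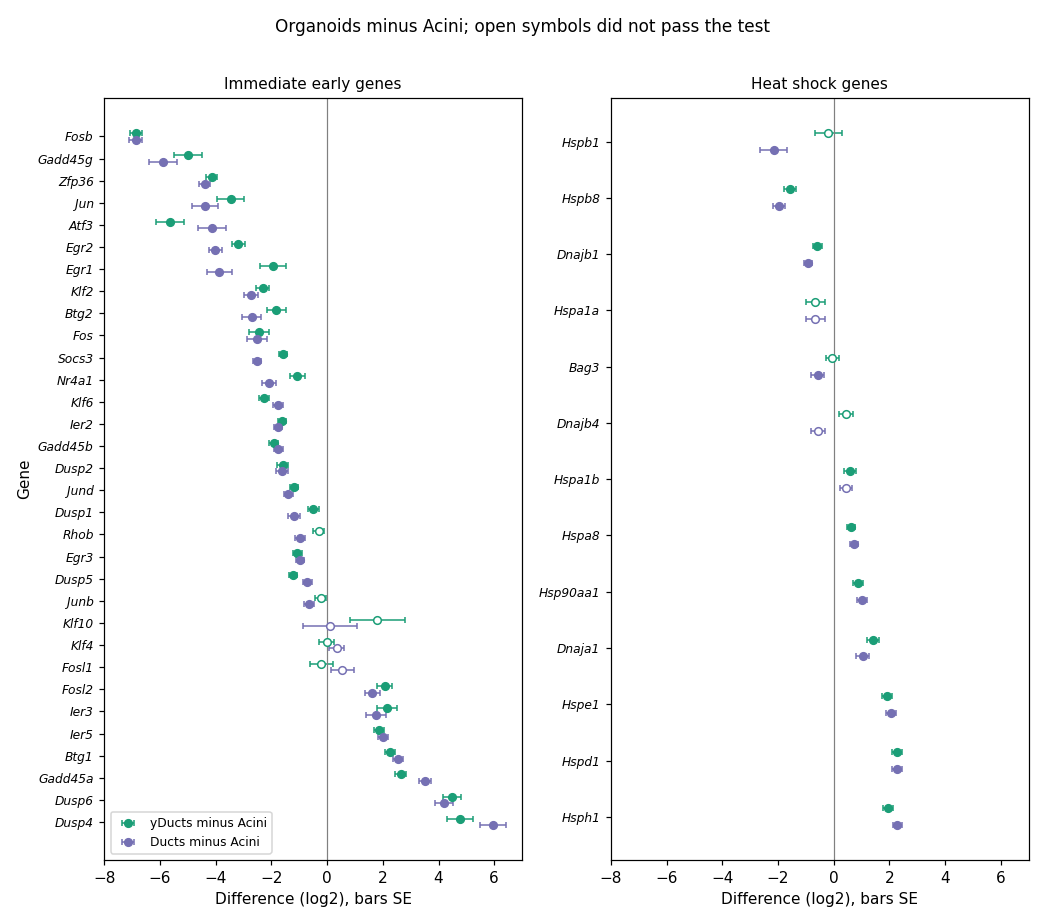
Differences in log2 expression (yDucts minus Acini and Ducts minus Acini) for the 32 immediate early genes (left) and 13 heat shock genes (right), with SE. Filled symbols passed the test and open ones did not. Differences among immediate early genes run from -6.88 (Fosb) to 5.96 (Dusp4), and among heat shock genes from -2.15 (Hspb1) to 2.29 (Hsph1), all in Ducts.

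Other genes of the early response were taken from a further list of 42, all tested. In yDucts 17 fell (40.5%) and 9 rose (21.4%), and in Ducts 19 fell (45.2%) and 9 rose (21.4%). Of all tested genes 32.6% and 33.1% fell, and 43.6% and 42.7% rose. The median differences of the 42 genes were -0.23 and -0.44. Those that fell most in yDucts were Sgk1, a kinase induced by serum and glucocorticoids (-4.27 ± 0.27), Csrnp1, a nuclear protein (-3.04 ± 0.17), and Dusp8 (-2.88 ± 0.15). In Ducts they were Csrnp1 (-3.53 ± 0.17), Rgs2, a regulator of G protein signalling (-3.26 ± 0.34), and Trib1, a pseudokinase (-2.80 ± 0.33). Spry2, an inhibitor of receptor tyrosine kinase signalling, rose by 3.78 ± 0.30 in yDucts and 4.11 ± 0.30 in Ducts. Klf5, a Krüppel-like factor of epithelia, rose by 3.77 ± 0.21 and 3.39 ± 0.21, and Phlda1 by 3.05 ± 0.22 and 3.60 ± 0.22. None of these 8 genes changed sign under quantile normalization, cyclic loess or median centring.

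Of 17 upstream factors and kinases tested, 9 rose (52.9%) and 2 fell in yDucts, and 8 rose (47.1%) and 3 fell in Ducts. The shares that rose were near the 43.6% and 42.7% of all tested genes. The shares that fell were 11.8% in yDucts and 17.6% in Ducts, below the 32.6% and 33.1% of all. Quantile normalization gave 7 higher and 9 lower in each. It put 29.2% of all tested genes higher and 35.9% lower in yDucts, and 28.4% and 36.1% in Ducts. Elk3, an ETS partner of SRF, rose by 3.47 ± 0.27 in yDucts and 3.01 ± 0.27 in Ducts, and Map2k1, the ERK-activating kinase MEK1, by 2.48 ± 0.17 and 2.58 ± 0.17. Atf2, a partner of JUN, rose by 2.14 ± 0.17 in yDucts, and Jdp2, a repressor of AP-1, by 2.37 ± 0.37 in Ducts. Srf itself fell by 0.78 ± 0.25 and 0.73 ± 0.25, with overlapping arrays, and Batf, a further AP-1 family member, by 1.21 ± 0.18 and 1.19 ± 0.18. Mapk14, the kinase p38 alpha, fell by 0.33 ± 0.12 in Ducts (adjusted p = 0.0287), with 0.11 ± 0.12 in yDucts.

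Heat shock genes moved in both directions. In yDucts against Acini 7 of 13 rose, 2 fell and 4 did not pass, and in Ducts against Acini 6 rose, 4 fell and 3 did not pass. The shares that rose were 53.8% and 46.2%, close to the 43.6% and 42.7% of all tested genes. The shares that fell were 15.4% and 30.8%, beside 32.6% and 33.1% of all. The medians were 0.58 and 0.44. These counts depended on the scaling of the arrays: under cyclic loess 3 rose and 6 fell in yDucts, and 3 rose and 7 fell in Ducts. The shares over all tested genes moved as well, to 27.1% higher and 36% lower in yDucts, and 25.8% and 36.6% in Ducts.

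The mitochondrial pair that shares the promoter stretch above was higher in the organoids under every scaling tried. Hspd1 read 11.71, 11.69, 11.57 and 11.85 in yDucts and 11.51, 11.39, 11.98 and 12.05 in Ducts, against 9.22, 9.44, 9.79 and 9.35 in Acini. Hspe1 read 11.14, 11.37, 11.23 and 11.19 in yDucts and 11.28, 11.03, 11.49 and 11.68 in Ducts, against 8.90, 9.54, 9.30 and 9.48 in Acini. For both genes every organoid array was above every Acini array. Hspd1 rose by 2.26 ± 0.18 in yDucts (adjusted p = 2.42e-07) and 2.28 ± 0.18 in Ducts (adjusted p = 2.18e-07), and Hspe1 by 1.93 ± 0.18 (adjusted p = 7.9e-07) and 2.06 ± 0.18 (adjusted p = 4.38e-07).

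Hsph1, an HSP110 that exchanges the nucleotide of HSP70, read 10.08, 10.63, 10.05 and 10.29 in yDucts and 10.29, 10.59, 10.65 and 10.89 in Ducts, against 8.41, 8.38, 8.35 and 8.12 in Acini. Its groups stayed apart, and it rose by 1.95 ± 0.17 in yDucts (adjusted p = 5.08e-07) and 2.29 ± 0.17 in Ducts (adjusted p = 1.26e-07). Dnaja1, an HSP40 cochaperone, read 10.94, 11.07, 11.02 and 10.76 in yDucts and 11.02, 10.84, 10.23 and 10.21 in Ducts, against 9.19, 9.81, 9.87 and 9.28 in Acini. It rose by 1.41 ± 0.22 and 1.04 ± 0.22, but cyclic loess gave 0.34 (adjusted p = 0.177) in yDucts and -0.04 in Ducts, and quantile normalization also ended the Ducts call (0.26, adjusted p = 0.291). Hspa8, the constitutive HSC70, read 13.09, 13.28, 13.11 and 13.04 in yDucts and 12.84, 13.26, 13.34 and 13.48 in Ducts, against 12.68, 12.42, 12.41 and 12.47 in Acini. The arrays did not overlap and the rise was 0.63 ± 0.15 (adjusted p = 0.00224) and 0.74 ± 0.15 (adjusted p = 0.000801), but cyclic loess gave -0.26 and -0.17 and quantile normalization ended both calls. The probe sets of Hspa8 next in brightness rose by 1.42 and 1.06 in yDucts and 1.61 and 1.49 in Ducts. Its dimmest gave -0.08 and 1.06. Hsp90aa1, the inducible cytosolic HSP90, rose by 0.86 and 1.01, where cyclic loess gave -0.14 and -0.01. Of its 5 probe sets a dim one moved the opposite way (-0.52 and -0.50), and the dimmest did not pass the filter. The others rose by 1.82 and 1.85, and by 0.72 and 0.90.

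Hspa1a and Hspa1b, the stress-inducible HSP70 genes, are nearly identical copies, so that their probe sets may each read both. Hspa1a read 8.06, 8.27, 8.11 and 8.32 in yDucts and 7.75, 9.52, 7.77 and 7.73 in Ducts, against 8.66, 9.07, 9.12 and 8.55 in Acini. Ducts B stood above all other arrays, and without it the Ducts difference was -1.10 (adjusted p = 9.78e-05) in place of -0.66 ± 0.34 (adjusted p = 0.0945). In yDucts, whose arrays did not overlap those of Acini, the difference was -0.66 ± 0.34 (adjusted p = 0.093), and it passed in the fit without Ducts B (adjusted p = 0.00229). With all arrays kept, Hspa1a passed as lower in both comparisons under quantile normalization and cyclic loess. The former gave -1.53 in yDucts (adjusted p = 0.0015) and -1.52 in Ducts (adjusted p = 0.00157). The latter gave -1.77 (adjusted p = 0.000604) and -1.76 (adjusted p = 0.000625). Hspa1b read 11.16, 11.52, 11.13 and 11.36 in yDucts and 10.80, 11.69, 10.90 and 11.22 in Ducts, against 10.80, 10.71, 11.03 and 10.31 in Acini. The yDucts arrays were above the Acini arrays and the Ducts arrays overlapped them. The difference was 0.58 ± 0.21 in yDucts (adjusted p = 0.0243) and 0.44 ± 0.21 in Ducts (adjusted p = 0.0752), and cyclic loess gave -0.45 and -0.60. The other probe sets of Hspa1b rose by 1.22 and 1 in yDucts and by 1.04 and 0.91 in Ducts. Its most variable one passed in Ducts (1.04, adjusted p = 0.00337).

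**Figure D4:**
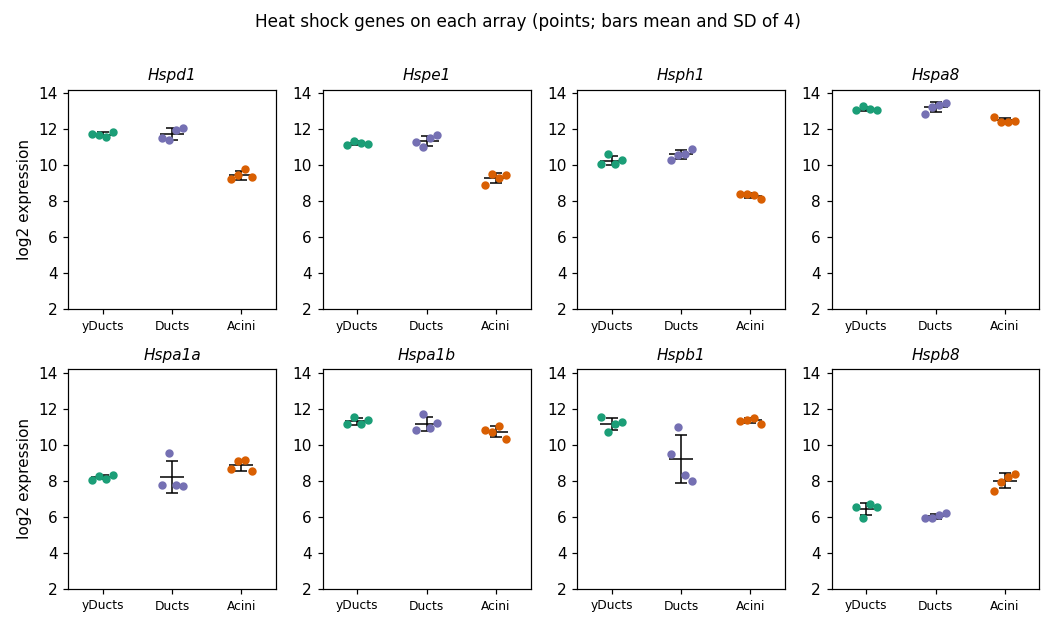
Log2 expression of 8 heat shock genes in yDucts, Ducts and Acini. Each point is an array and bars give the mean and SD of 4 arrays. Hspd1, Hspe1 and Hsph1 are higher in both kinds of organoid, Hspb8 is lower, and the Hspb1 arrays of Ducts run between 8 and 10.96.

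The small heat shock proteins hold unfolded proteins without using ATP. Hspb1, which encodes HSP25 in mice, read 11.53, 10.70, 11.14 and 11.24 in yDucts and 9.5, 10.96, 8.31 and 8 in Ducts, against 11.32, 11.39, 11.49 and 11.16 in Acini. It fell by 2.15 ± 0.49 in Ducts (4.43-fold, adjusted p = 0.00151), with Ducts C and D lowest, and differed by -0.19 ± 0.49 in yDucts (adjusted p = 0.736). Under cyclic loess Hspb1 passed as lower in yDucts as well (-1.25, adjusted p = 0.0453). Hspb8, which works with BAG3 in selective autophagy, read 6.55, 5.94, 6.71 and 6.52 in yDucts and 5.93, 5.91, 6.09 and 6.21 in Ducts, against 7.43, 7.93, 8.22 and 8.38 in Acini. Organoid and Acini arrays did not overlap, and it fell by 1.56 ± 0.22 in yDucts (adjusted p = 3e-05) and 1.96 ± 0.22 in Ducts (adjusted p = 4.29e-06). Its other probe sets set the organoids further apart, with -1.02 and -0.39 in yDucts and -3.53 and -2.01 in Ducts. Dnajb1, the HSP40 that pairs with inducible HSP70, read 8.88, 9.28, 8.96 and 8.95 in yDucts and 8.53, 8.54, 8.77 and 8.93 in Ducts, against 9.49, 9.51, 9.75 and 9.65 in Acini. It fell by 0.58 ± 0.15 and 0.91 ± 0.15, again without overlap. Bag3 fell by 0.57 ± 0.24 in Ducts with overlapping arrays (adjusted p = 0.0444), a call lost in 13 of 25 alternatives. It was -0.14 (adjusted p = 0.578) when Ducts C and D were left out. As deposited, Bag3 differed by -0.04 ± 0.24 in yDucts. It passed as lower there under quantile normalization (-0.90, adjusted p = 0.00488) and cyclic loess (-1.17, adjusted p = 0.00105). Dnajb4 passed in neither comparison as deposited. In Ducts 7 of 25 alternatives called it lower, quantile normalization among them (-1.44, adjusted p = 0.000161). In yDucts cyclic loess gave -0.63 (adjusted p = 0.0349) and median centring 0.66 (adjusted p = 0.0341). Against Ducts it was 1 higher in yDucts (adjusted p = 0.0524), and 9 of 25 alternatives called that difference.

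Other cytosolic chaperones and cochaperones mostly rose. Of 34 tested, 28 rose in each kind of organoid (82.4%, beside 43.6% of all tested genes in yDucts and 42.7% in Ducts). In yDucts 1 fell (2.94%) and in Ducts 2 (5.88%), beside 32.6% and 33.1% of all. Under cyclic loess 14 were higher and 4 lower in yDucts, and 16 higher and 8 lower in Ducts. Of all tested genes, cyclic loess put 27.1% higher and 36% lower in yDucts, and 25.8% higher and 36.6% lower in Ducts. Hspa4l, an HSP110 relative, rose by 4.73 ± 0.44 in yDucts and 3.67 ± 0.44 in Ducts. Stip1, which links HSP70 to HSP90, rose by 3.41 ± 0.17 in yDucts, and Cct8, a subunit of the chaperonin that folds actin and tubulin, by 3.29 ± 0.30 in both. Hspa14 rose by 3.35 ± 0.18 in Ducts. The small heat shock genes Hspb7 and Cryab fell, Hspb7 by 0.90 ± 0.22 in yDucts and 0.97 ± 0.22 in Ducts, and Cryab by 1.38 ± 0.41 in Ducts, with overlapping arrays.

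Of 16 chaperones of the endoplasmic reticulum (ER) and mitochondria, 7 rose (43.8%) and 5 fell (31.2%) in yDucts, shares close to the 43.6% and 32.6% of all tested genes. In Ducts 8 rose (50%) and 2 fell (12.5%), where 42.7% and 33.1% of all did. The Ducts arrays were uneven here: the mean level of the 16 genes was 9.69, 9.58, 10.63 and 10.59 on Ducts A to D. It was 9.72 to 9.99 in yDucts and 9.48 to 9.88 in Acini, so the Ducts counts pool unlike arrays. Cyclic loess gave 2 higher and 10 lower in yDucts, and 3 higher and 8 lower in Ducts. It put 27.1% of all tested genes higher and 36% lower in yDucts, and 25.8% and 36.6% in Ducts. Dnajc3, an ER cochaperone that inhibits the kinase PERK, fell by 2.69 ± 0.35 in yDucts and 2.17 ± 0.35 in Ducts. Dnajb11, a cochaperone of BiP, fell by 0.83 ± 0.26 in yDucts (adjusted p = 0.0115). In Ducts it fell by 0.63 ± 0.26 (adjusted p = 0.044), with overlapping arrays. Sdf2l1 and Dnajb9 of the ER fell by 1.44 ± 0.54 and 0.87 ± 0.27 in yDucts. Those that rose most were mitochondrial: Hspa9, the mitochondrial HSP70, by 1.98 ± 0.25 and 2.42 ± 0.25 in yDucts and Ducts, Trap1, a mitochondrial HSP90, by 1.57 ± 0.14 in yDucts, Dnaja3 by 1.5 ± 0.22 and 1.74 ± 0.22, and Lonp1, a matrix protease, by 1.80 ± 0.31 in Ducts.

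The organoids of acinar and ductal origin differed in few members. The yDucts also came from cells with the YAP transgene and had been exposed to doxycycline. Origin, transgene and this exposure cannot be told apart between them and Ducts. In yDucts against Ducts 2 of 32 immediate early genes were higher (Egr1 and Socs3), 1 was lower (Gadd45a) and 29 did not pass, where 2.15% and 0.987% of all tested genes were higher and lower. Of the 13 heat shock genes none passed in limma, 4 having an unadjusted p under 0.05, as did 2064 of 14991 tested genes. A fit with array weights, which give uneven arrays less say, called 5 higher and 3 lower. That fit called 21% of all tested genes higher and 20.2% lower. With the mean of probe sets Hspb8 (1.51, adjusted p = 0.0035) and Hspb1 (2, adjusted p = 0.0484) were higher in yDucts, as were 2.69% of all tested genes. For Egr1, whose 4 yDucts arrays lay between 10.90 and 11.54 and whose Ducts arrays lay between 8.04 and 10.49, the difference was 1.93 ± 0.46 (adjusted p = 0.0386). Leaving out Ducts C and D gave 0.87 (adjusted p = 0.0687), and it did not pass in any fit that left out an Acini array, Ducts C or D, or any yDucts array.

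Socs3 read 8.81, 9.08, 8.80 and 8.72 in yDucts and 8.05, 7.89, 7.89 and 7.88 in Ducts, against 10.77, 10.37, 10.40 and 10.21 in Acini. The 3 groups did not overlap, and yDucts stood 0.93 ± 0.15 above Ducts (adjusted p = 0.00391). Socs3 was the one member called between the organoids under all 25 alternatives. Gadd45a, with its values above, was 0.88 ± 0.21 lower in yDucts (adjusted p = 0.0436), a call lost in 13 of 25 alternatives, and leaving out Ducts C and D gave -0.64 (adjusted p = 0.335). Among the further early response genes, Nr4a2, an orphan nuclear receptor, and Gem, a small GTPase, were higher in yDucts by 1.05 ± 0.25 and 1.42 ± 0.21, and Sgk1 and Pim1, both kinases, were lower by 1.85 ± 0.27 and 1 ± 0.22. Of the chaperones Cryab was higher, by 1.82 ± 0.41.

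**Figure D5:**
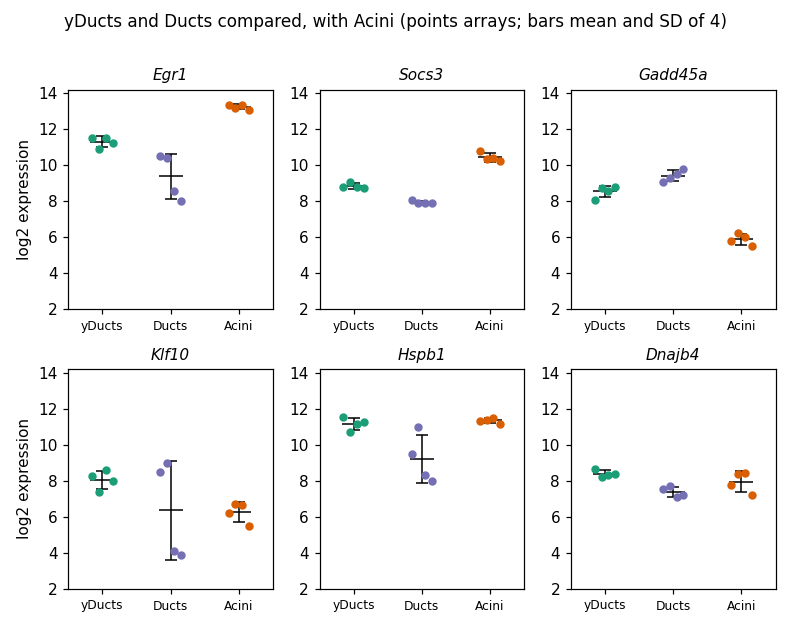
Log2 expression of 6 members that differ between or within the organoids, in yDucts, Ducts and Acini. Each point is an array in the order A to D and bars give the mean and SD of 4 arrays. The Ducts arrays of Klf10 run from 3.90 to 8.97, while those of Socs3 lie between 7.88 and 8.05.

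The Ducts arrays were the most uneven for the immediate early genes. The median SD of the 32 immediate early genes was 0.18 in yDucts, 0.35 in Ducts and 0.26 in Acini, and that of all tested genes was 0.14, 0.23 and 0.36. For the heat shock genes it was 0.16, 0.28 and 0.29. In Klf10, Jun, Egr1, Gadd45g and Hspb1 Ducts C and D were below Ducts A and B, and in Atf3 and Dusp4 they were above. Without Ducts A and B 13 immediate early genes were higher and 5 lower in yDucts than in Ducts, and without Ducts C and D 1 was higher and 0 lower. Calls over all tested genes moved too. Without Ducts A and B 8.62% were higher and 5.92% lower, and without Ducts C and D 1.06% and 1.08%. Hspb1, for example, was 1.96 ± 0.49 higher in yDucts (adjusted p = 0.0504) on all arrays, and 3 (adjusted p = 5.98e-06) when Ducts A and B were left out. Among the Acini, array C had the highest value of its group for 19 of 32 immediate early genes and array D the lowest for 24, although all 4 Acini arrays stayed apart from the organoids for the genes described above as not overlapping.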

How the data were processed

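The values deposited by the authors were on the log2 scale, with 2 decimals, for each probe set on each of 12 arrays. RMA is named in the submitters' processing notes. It corrects background, quantile-normalizes and summarises probes by median polish. Its version and whether all arrays were run together were not given in the sources used here. The deposited arrays did not share the same distribution. Their medians were 4.54 to 4.62 in Acini, 4.36 to 4.4 in Ducts and 4.36 to 4.39 in yDucts. Their 30th percentiles were 3.64 to 3.79, 3.19 to 3.23 and 3.18 to 3.21, in the same order. A percentile near the top of the range was 8.84 to 9.05, 9.74 to 9.79 and 9.74 to 9.77. Dim signals thus read higher in Acini and bright ones lower. Results under other scalings are given below. Of 45101 probe sets, 34958 had 1 gene symbol in the platform annotation, 932 had several and 9211 had none. The probe set with the highest mean over the 12 arrays stood for its gene. Genes above the 30th percentile of their array on at least 4 arrays were tested over all 3 groups with limma (version 3.58.1, R 4.3.3, 9 residual and 3.72 prior degrees of freedom), two-sided, with Benjamini-Hochberg adjustment over 14991 genes and a threshold of 0.05. Group means below the 30th percentile were treated as bounds: values were raised to that percentile, and folds are written "at least". The code was tested on simulated data.

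The members and the further gene lists were chosen with earlier results of these data known. Values on every array were given, per comparison, for up to 6 called members of each group that fell and 4 that rose most without overlap, and for Fos, Fosb, Jun, Egr1, Atf3, Hspa1a, Hspa1b, Hspb1, Hspa8 and Hsf1, the last of which was not analysed here. Klf10 was added after its values were seen. Up to 3 called genes each way were named from each further list. Alternatives changed the normalization, the filter, the choice of probe set, the model and the arrays. Same-letter arrays of 2 groups deviated from their group means with correlations of -0.35 to 0.13, so the letters A to D were not taken to pair the samples.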

Additional observations from a re-analysis of the deposited data

Results flagged for a closer look

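Of 135 combinations of a member and a group, 4 (2.96%) had an array set apart from the other 3 beyond Dixon's critical value for the gap over the group's range, where chance gives about 5%. These were Klf4 on yDucts D (9.22, the others at most 8.76), Gadd45g on yDucts B (4.74, the others at least 6.11), Socs3 on Ducts A (8.05, the others at most 7.89) and Hspa1a on Ducts B (9.52, the others at most 7.77), all in log2. For 3 members the change against Acini differed between the organoids, by the test of yDucts against Ducts: it was higher in yDucts for Egr1 (1.93) and Socs3 (0.93) and lower for Gadd45a (-0.88).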

How the results depend on the processing

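Counts of immediate early genes against Acini stayed within 1.5 times under all 25 alternatives: 19 to 23 lower and 6 to 8 higher in yDucts, and 21 to 23 lower and 5 to 9 higher in Ducts. Of the members called, 29 of 36 in yDucts against Acini, 32 of 39 in Ducts against Acini and 1 of 3 in yDucts against Ducts were called under all of them.

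Scaling mattered for the heat shock genes, and for some immediate early genes. The immediate early median in yDucts against Acini was -1.21 as deposited, -1.85 after quantile normalization, -2.19 after cyclic loess and -0.99 after median centring. The median difference of all genes in yDucts against Acini was 0.24 as deposited, -0.16 after quantile normalization, -0.15 after cyclic loess and 0.46 after median centring, and in Ducts it was 0.21, -0.15, -0.17 and 0.42. The share of calls that were higher was 57.2%, 44.9%, 43.0% and 64.8% in yDucts and 56.3%, 44.0%, 41.4% and 63.7% in Ducts. In Ducts it was 47.1% with no filter and 67.7% with a filter at the 50th percentile. Under cyclic loess 3 heat shock genes were higher in yDucts and 3 in Ducts, and 6 and 7 were lower. Of all tested genes 27.1% and 25.8% were then higher, and 36% and 36.6% lower. Quantile normalization gave 4 heat shock genes lower in yDucts, with 35.9% of all tested genes lower. Signs turned in yDucts against Acini under cyclic loess for Dnajb4 (-0.63), Hsp90aa1 (-0.14), Hspa1b (-0.45) and Hspa8 (-0.26), under quantile normalization for Hspa1b (-0.11), and with the most variable probe set for Egr3 (0.69). In Ducts against Acini they turned under cyclic loess for Dnaja1 (-0.04), Hsp90aa1 (-0.01), Hspa1b (-0.60), Hspa8 (-0.17) and Klf4 (-0.78), and without Ducts A and B for Klf10 (-2.27). In yDucts against Ducts Egr3 turned with the mean of probe sets (1.22) and the most variable one (2.55). Apart from the changes of scale, probe set or arrays themselves, the cause was not tested.

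Counts in yDucts against Ducts moved most. Higher immediate early genes (2 as reported) numbered 1 under quantile normalization, with only the 2 groups fitted and without Ducts C and D, 4 with the mean of probe sets, 15 with array weights, 13 without Ducts A and B, and 1 to 6 when single arrays were left out, 6 being without Ducts B. Lower ones (1 as reported) numbered 0 under quantile normalization, median centring, the 2-group fit and without Ducts C and D, 8 with array weights, 5 without Ducts A and B, and 0 to 3 without single arrays. With the letter as a replicate block 0 were lower. Higher heat shock genes (0 as reported) numbered 1 under cyclic loess, median centring and the 2-group fit, 2 with the filter at the 50th percentile, the mean of probe sets, the most variable probe set and the trended variance, 5 with array weights, 4 without Ducts A and B, and 0 to 2 without single arrays, and array weights gave 3 lower. Over all genes the share of higher calls was 68.5% as reported, 50.9% with array weights and 49.5% without Ducts C and D. Array weights called 21% of all tested genes higher and 20.2% lower. Without Ducts A and B these shares were 8.62% and 5.92%, beside 2.15% and 0.987% as reported.

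The number of arrays (4 per group) sets the precision. Without detection calls in the deposited table, levels near the 30th percentile, as for Fosb and Egr2 in organoids and Dusp4 in Acini, are poorly known.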
